A study of Mus musculus with 2 samples.

Results

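The genes described here are 10 genes of the Notch pathway: the ligands Jag1, Jag2, Dll1 and Dll4, the sugar transferase Lfng, the receptors Notch1 and Notch2, and the target genes Hes1, Hey1 and Heyl. They were found by gene name among the non-control probes of the scanner files, which gave 13 of 39429 probes: Dll1, Notch1 and Notch2 had 2 probes each and the other genes 1. The arrays compared ureters of NMRI mouse embryos at E14.5 with the genotype Tbx18(cre/+);Gata6(fl/fl), called Gata6cKO, with ureters of control embryos of the same strain and age with the genotype Gata6(fl/?). The Gata6cKO embryos thus carried 2 floxed copies of the transcription factor gene Gata6 and a cre allele of Tbx18, which is active in the outer, mesenchymal layer of the ureter, while the control label names at least 1 floxed copy and no cre. Loss of Gata6, the presence of cre and the altered Tbx18 copy cannot be told apart. There were 4 RNA samples on 2 two-colour arrays. The replicate 1 array held Gata6cKO RNA in Cy5 and control RNA in Cy3, both from males, and the replicate 2 array held Gata6cKO RNA in Cy3 and control RNA in Cy5, both from females. Sex and dye orientation therefore changed together between the arrays and cannot be told apart. How many embryos gave each RNA is not in the labels, so a p-value covers only these RNA samples. It rests in small part on the difference between the 2 arrays and mostly on variance pooled over all kept probes. A moderated SE shares that pooled variance, so it can be smaller than the difference between the arrays alone would give.

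Notch signalling passes between touching cells. A ligand of the Jagged or Delta-like family on one cell binds a Notch receptor on its neighbour, proteases then release the receptor's inner part, and this part joins the DNA-binding protein RBPJ to switch on Hes and Hey genes, which encode transcriptional repressors. Lfng adds a sugar to the receptor outside the cytoplasm and changes which ligands it answers to. In the mouse ureter the pathway is known to support differentiation of the smooth muscle.

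The probes are 60 bases long, and each is spotted 4 times on each array. Their beginnings are printed because 3 genes are read by 2 probes that need not agree. The first 30 bases of each are shown. Coordinates are on mm9, as in the file headers.
Jag1, chr2:136907433-136907492, minus strand: ggagtattctcataagctagttgaatactt
Jag2, chr12:114146887-114146946, minus strand: ttgtataaattattcaacggctgtcaggcg
Dll1, brighter probe, chr17:15504623-15504682, minus strand: gattactatgagccagtctttccttgaact
Dll1, dimmer probe, chr17:15513726-15513785, minus strand: acactatccggaccccaattccccatttcc
Dll4, chr2:119160779-119160838, plus strand: tttgcccagactccatcctcacagctgggc
Lfng, chr5:141091224-141091283, plus strand: tttggaaagctggacaatgagtgccttagt
Notch1, brighter probe, chr2:26319440-26319499, minus strand: tcctgcagtggagggggccttgagacaggc
Notch1, dimmer probe, chr2:26314630-26314689, minus strand: ttgcttctttccaaaatcgaaaagaaagaa
Notch2, brighter probe, chr3:97953914-97953973, plus strand: ccacttgaagtcttgcatagaaatgaacca
Notch2, dimmer probe, chr3:97951233-97951292, plus strand: tcttcaccacactctgcatctgactggtca
Hes1, chr16:30067820-30067879, plus strand: ttaaaatatcttcctttggggaagtttatt
Hey1, chr3:8663432-8663491, minus strand: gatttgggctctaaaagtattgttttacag
Heyl, chr4:122926975-122927034, plus strand: aatcattttcttcaaggtctttgcccttct
GC content ran between 26.7% for the Hes1 probe and 55.0% for the Dll4 probe. By the start positions in the files, the brighter Notch1 probe begins at base 5898 of its transcript and the dimmer one at base 8221. For Notch2 the order was the other way round, with the dimmer probe at base 7448 and the brighter one at base 10129.

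In Gata6cKO ureters, Jag2 and Lfng were lower and Heyl was higher, each by less than 1.5-fold, and the other 9 kept probes did not pass the test. The median raw spot signal was 425 (Cy5) and 224 (Cy3) in Gata6cKO RNA, and 232 (Cy3) and 442 (Cy5) in control RNA, over local backgrounds with medians between 23 and 85. Between 67.2% and 68.5% of spots stood well above background in a channel, and the number of arrays limits the precision. Probes stayed in the test when 3 or more of the 4 spots rose well over background, in Gata6cKO or in control RNA, on both arrays, which held for 26200 probes and for 12 of the 13 members. Gata6cKO was compared with control on the log2 scale with limma across all kept probes, with a Benjamini-Hochberg adjusted p under 0.05 as the threshold. Of all kept probes 4.66% passed, 2.43% as lower and 2.23% as higher, against 2 of 12 member probes lower and 1 of 12 higher. The median log2 ratio was -0.06 over the 12 kept member probes and 0.00037 over all kept probes. The Gata6 probe itself read 22502 and 22454 in male and female Gata6cKO RNA, against 12512 and 16353 in control RNA. It was higher, by 0.65 ± 0.12 on the log2 scale (limma adjusted p = 0.00333). It is not known here whether that probe lies in the floxed part, so its level checks nothing about the labels. Tbx18, the locus that carries cre, stood at -0.20 ± 0.13 on the log2 scale and did not pass (limma adjusted p = 0.810). The arrays had opposite signs for it, with 0.09 on the male array and -0.50 on the female one. It read 10568 and 9966 in male and female Gata6cKO RNA, against 9921 and 14060 in control RNA.

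**Figure D1:**
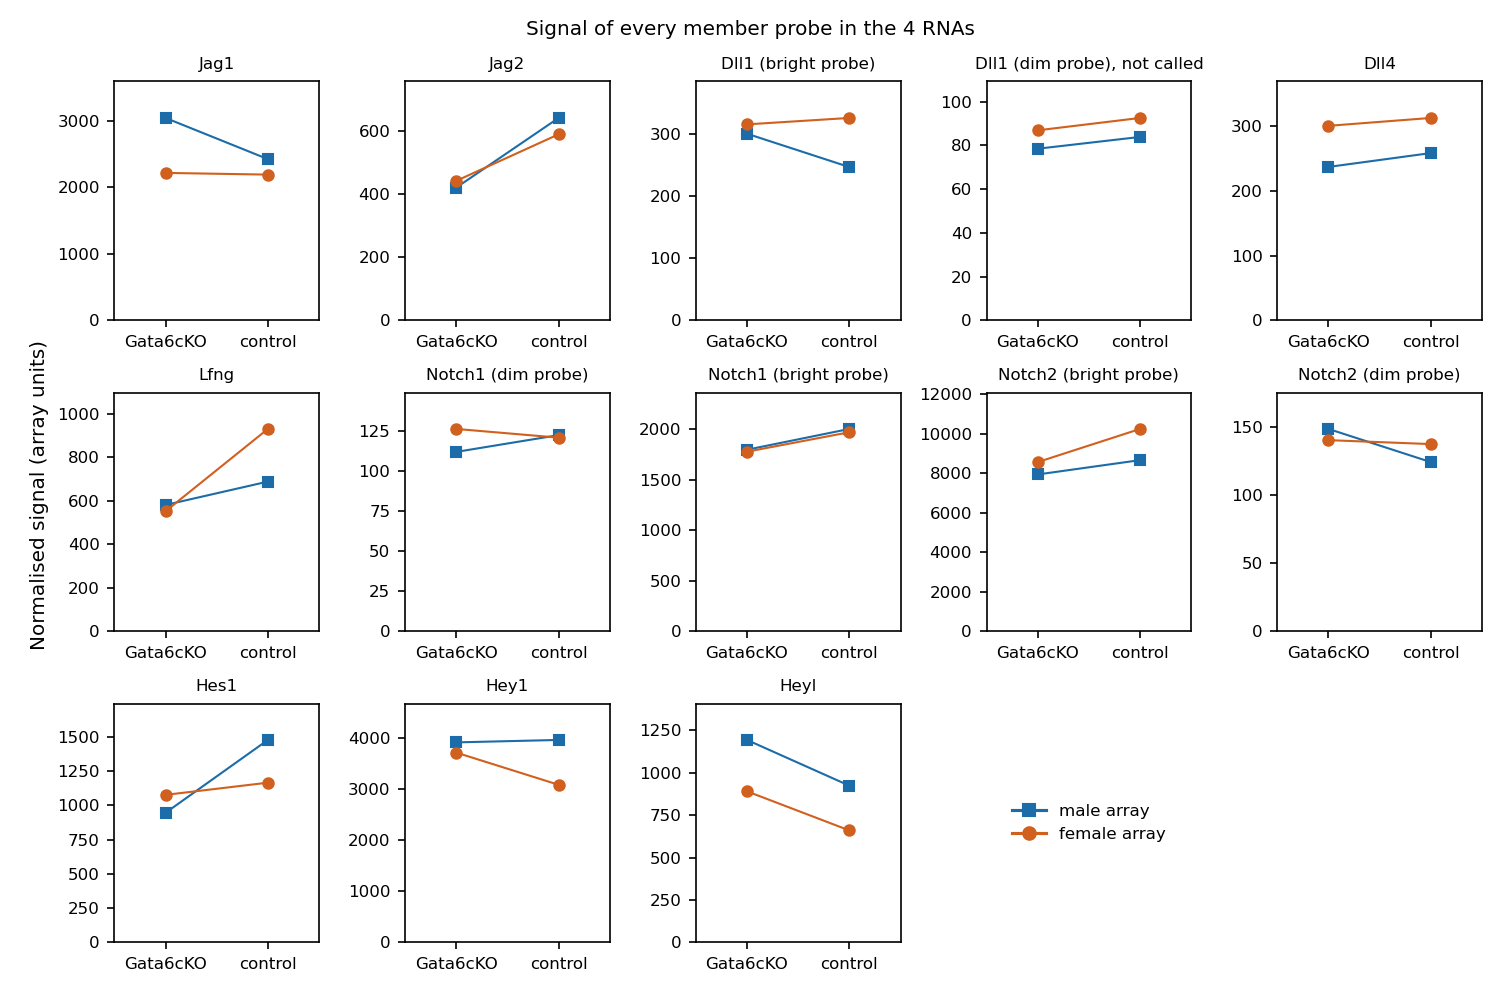
Normalised signal (array units, linear axis from 0) of all 13 member probes in Gata6cKO RNA (left) and control RNA (right) of each panel. Squares joined by a line are the male array and circles the female array; the Jag2 points are 421 and 443 in Gata6cKO RNA and lie below both control points, and the dimmer Dll1 probe was not tested.

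Among the ligands, Jag2, a Jagged ligand for Notch receptors on neighbouring cells, was lower. Its normalised signal was 421 in male and 443 in female Gata6cKO RNA, against 642 in male and 590.3 in female control RNA. Both Gata6cKO values lay below both control values, an order that 17.1% of all kept probes also showed. The log2 ratio was -0.51 ± 0.11 (moderated SE, n = 2 arrays; limma adjusted p = 0.0120), a 1.43-fold lower level, with -0.61 on the male array and -0.42 on the female one. All 8 spots of the probe were below 0, between -0.70 and -0.56 on the male and between -0.44 and -0.37 on the female array. The call held under 6 of 9 other settings and was lost with an adjusted p of 0.0629 with no filter on dim probes, 0.136 with separate channels and no replicate block, and 0.961 with median centring.

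Jag1, the other Jagged ligand, read 3046 and 2219 in male and female Gata6cKO RNA, against 2426 and 2193 in control RNA. The values of the genotypes overlapped, since the female Gata6cKO value lay below the male control value. The log2 ratio was 0.17, with a 95% interval between -0.08 and 0.42 (limma adjusted p = 0.838), 0.33 on the male array and 0.02 on the female one. Dll1, a ligand of somites and of neural progenitors, read 300.4 and 315 in Gata6cKO RNA, against 247 and 326 in control RNA, at its brighter probe. Its log2 ratio was 0.12 (95% interval -0.13 to 0.37), and the arrays had opposite signs. The dimmer Dll1 probe was not well above background in any spot of either genotype and was not tested. Dll4, a ligand of arterial endothelium, read 237 and 300.6 in Gata6cKO RNA, against 258 and 313 in control RNA, with a log2 ratio of -0.09 (95% interval -0.32 to 0.14). All 8 Dll4 spots were below 0, but the genotypes overlapped, because the female array read higher in both.

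Lfng was lower in Gata6cKO ureters, and the arrays differed in how much. The normalised signal was 581 in male and 552 in female Gata6cKO RNA, against 688 in male and 930.0 in female control RNA. Both Gata6cKO values lay below both control values, and the control values lay further apart than the Gata6cKO values. The log2 ratio was -0.50 ± 0.13 (moderated SE, n = 2 arrays; limma adjusted p = 0.0328), a 1.41-fold lower level, with -0.24 on the male array and -0.75 on the female one. Spots lay between -0.31 and -0.17 on the male and between -0.85 and -0.66 on the female array, so the difference between the arrays was larger than the spread of spots within them. Of all kept probes, 4.58% differed more between the arrays. The call held under 4 of 9 other settings, and the adjusted p rose as far as 0.971 with median centring.

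Neither receptor passed the test, and their paired probes did not give the same picture. The brighter Notch1 probe read 1799 and 1779 in Gata6cKO RNA, against 2004 and 1972 in control RNA. Both Gata6cKO values were lower than both control values, by a small and even amount: the log2 ratio was -0.16 on the male array and -0.15 on the female one, and -0.15 over both (95% interval -0.38 to 0.08; limma adjusted p = 0.892). The dimmer Notch1 probe read 112 and 126 in Gata6cKO RNA, against 122 and 121 in control RNA, with 1 of 4 spots well above background in the male Gata6cKO RNA. Its log2 ratio was -0.03, with opposite signs on the arrays.

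Notch2, a receptor that also works in nephron formation, read 7935 and 8560.3 in Gata6cKO RNA, against 8659 and 10236 in control RNA, at its brighter probe. These values did not overlap, and the log2 ratio was -0.19 (95% interval -0.43 to 0.04; limma adjusted p = 0.679). The dimmer Notch2 probe ran the other way, with 149 and 141 in Gata6cKO RNA, against 124 and 138 in control RNA, and a log2 ratio of 0.14 (95% interval -0.10 to 0.38; limma adjusted p = 0.963). The intervals of the paired Notch2 probes overlapped, and the mean of both probes was -0.02. Over the 12 kept member probes, 5 had both Gata6cKO values below both control values and 1 had both above, where all kept probes showed 1 of these orders in 32.8%. The arrays had the same sign for 9 of the 12, against 49.1% of all kept probes.

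**Figure D2:**
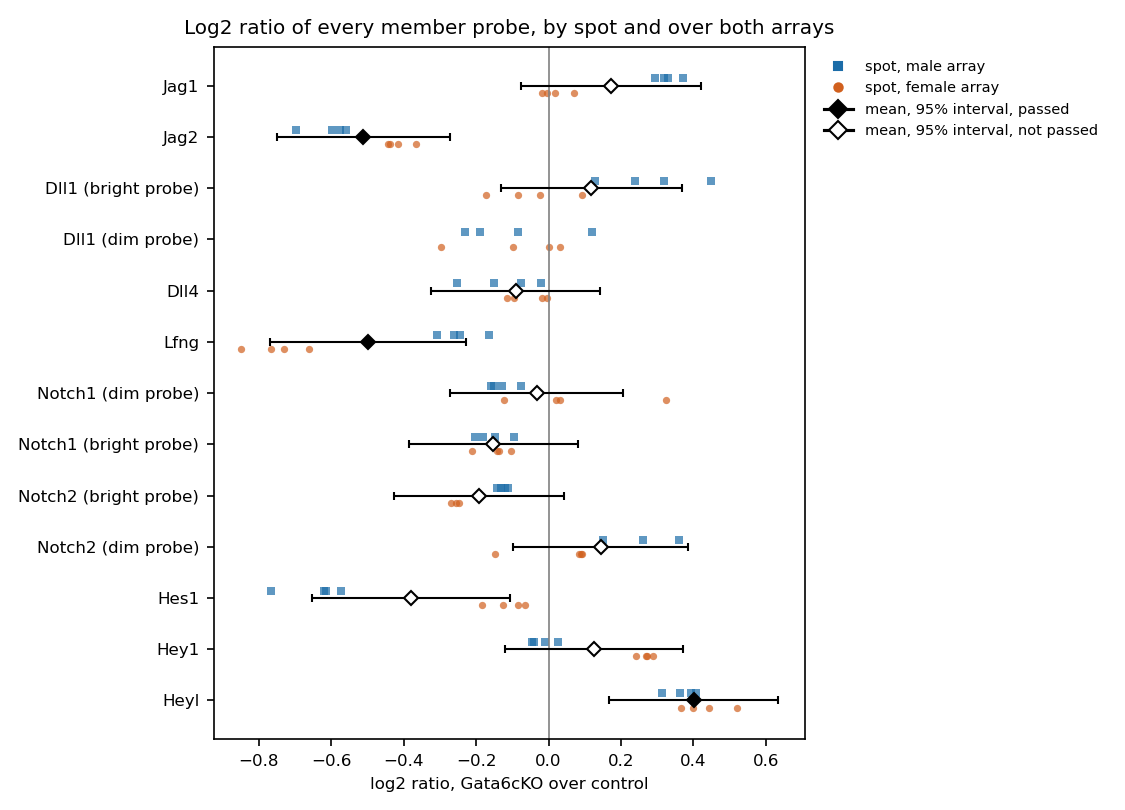
Log2 ratio of Gata6cKO over control for every member probe: squares are single spots of the male array, circles single spots of the female array, and diamonds the mean over both arrays with its 95% interval (filled where the probe passed the test). The spots of Jag2 and Lfng lie below 0 and those of Heyl above 0 on both arrays, while the Hes1 spots lie between -0.77 and -0.57 on the male and between -0.18 and -0.06 on the female array.

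Of the target genes, Heyl was higher, and Hes1 and Hey1 did not pass the test. Heyl, a repressor of the Hey family known from smooth muscle and mural cells, read 1194 in male and 891 in female Gata6cKO RNA, against 924 in male and 660.5 in female control RNA. The genotypes overlapped, because the male RNAs read higher than the female ones, but within each array the Gata6cKO value was the higher one. The log2 ratio was 0.40 ± 0.11 (moderated SE, n = 2 arrays; limma adjusted p = 0.0492), a 1.32-fold higher level, with 0.37 on the male array and 0.43 on the female one. All 8 spots were above 0. The call stood at the edge of the threshold: it held under 2 of 9 other settings, with an adjusted p between 0.0471 and 1.00 over the 9.

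Hes1, the repressor most widely used as a Notch readout, read 946 in male and 1076 in female Gata6cKO RNA, against 1477 in male and 1166 in female control RNA. Both Gata6cKO values lay below both control values. The log2 ratio was -0.38 ± 0.13 (95% interval -0.65 to -0.11), with -0.64 on the male array and -0.11 on the female one, and it did not pass after adjustment (limma adjusted p = 0.144, unadjusted p = 0.00984). Of all kept probes, 4.01% differed more between the arrays. Hes1 and Lfng thus differed between the arrays in opposite ways: the ratio of Hes1 was further from 0 on the male array and that of Lfng on the female array. Hey1, a further repressor of the family, read 3907 and 3707 in Gata6cKO RNA, against 3955 and 3079 in control RNA, with a log2 ratio of 0.13 (95% interval -0.12 to 0.37) and opposite signs on the arrays.

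**Figure D3:**
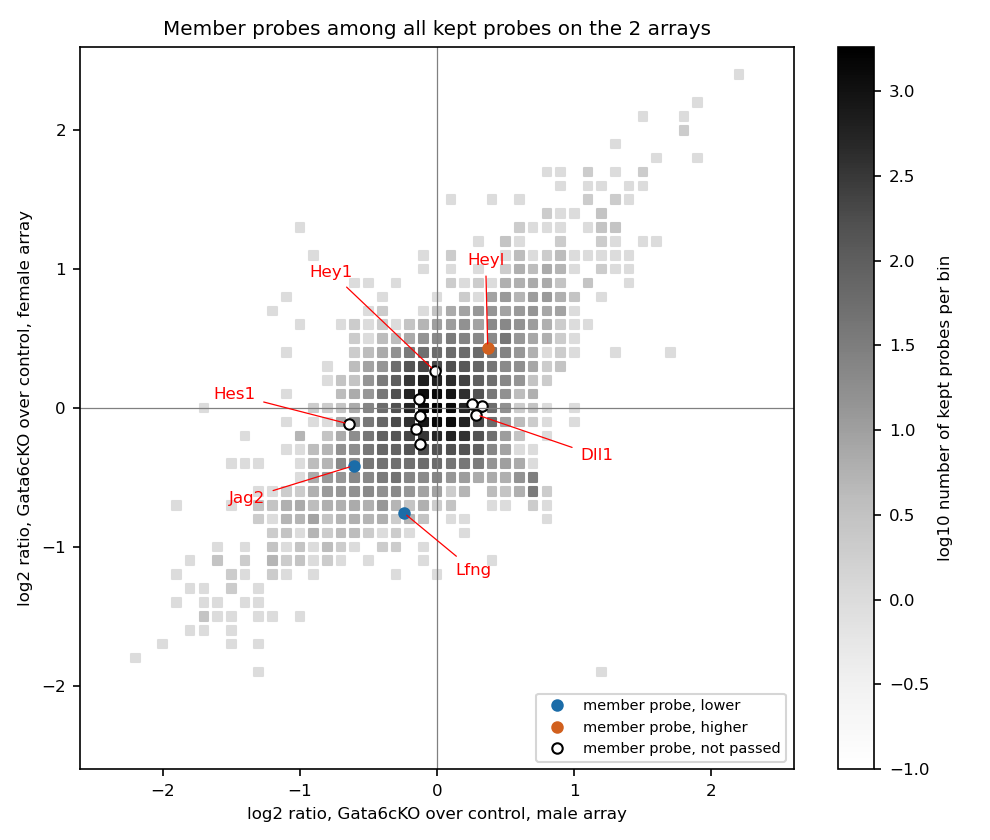
Log2 ratio of Gata6cKO over control on the male array (horizontal) and on the female array (vertical). Grey squares count all 26200 kept probes in bins and circles are the 12 kept member probes; Jag2 (-0.61 and -0.42) and Heyl (0.37 and 0.43) lie near the diagonal, while Hes1 (-0.64 and -0.11) and Lfng (-0.24 and -0.75) lie off it on opposite sides.

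The remaining pathway genes were followed through a list of 44 further Notch genes, of which 42 had a kept probe. Of their 58 kept probes, 1 was lower, 1 was higher and 56 did not pass, and the median log2 ratio was 0.01. Of all kept probes 4.66% passed. An unadjusted p under 0.05 was found for 4 of the 58, the 2 that passed included. Among all 26200 kept probes it was found for 2935. Dner, a neuronal membrane protein with Delta-like repeats that can bind Notch, was higher: it read 271 and 258 in Gata6cKO RNA, against 188 and 176 in control RNA, a log2 ratio of 0.54 ± 0.11 (limma adjusted p = 0.00719). Dtx4, a ubiquitin ligase of the Deltex family, was lower: it read 3993 and 4479 in Gata6cKO RNA, against 6144 and 6149 in control RNA, a log2 ratio of -0.54 ± 0.11 (limma adjusted p = 0.00789). For both genes the genotypes did not overlap, as held for 20 of the 58 probes and for 32.8% of all kept probes. Both calls were lost with median centring and with separate channels and no replicate block.

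The core machinery lay close to 0. The 12 kept probes of the receptor-cleaving proteases had log2 ratios between -0.12 and 0.01, and the 9 kept probes of Rbpj and the other nuclear partners lay between -0.06 and 0.16. Of the other receptors, Notch3, a receptor of mural cells, had a log2 ratio of 0.10 (95% interval -0.13 to 0.34), and Notch4, a receptor of endothelium, one of -0.10 (95% interval -0.35 to 0.16). The other Fringe genes, Mfng and Rfng, which encode relatives of the Lfng enzyme, had log2 ratios of -0.10 and -0.05, and of 0.20 and 0.17, at their paired probes. The ligand Dll3 gave 0.31 and 0.16. Among further targets, Nrarp, which is induced by Notch and dampens it, had -0.24 (95% interval -0.50 to 0.03), Hey2 had 0.19 (95% interval -0.09 to 0.47), and Hes5, a target of neural progenitors, had -0.29 (95% interval -0.86 to 0.28). None of the genes named in this paragraph passed the test with limma. Hes5 stood apart in the spread between the arrays: it read 172 and 325 in male and female Gata6cKO RNA, against 409 and 204 in control RNA, so that its log2 ratio was -1.25 on the male array and 0.67 on the female one.

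**Figure D4:**
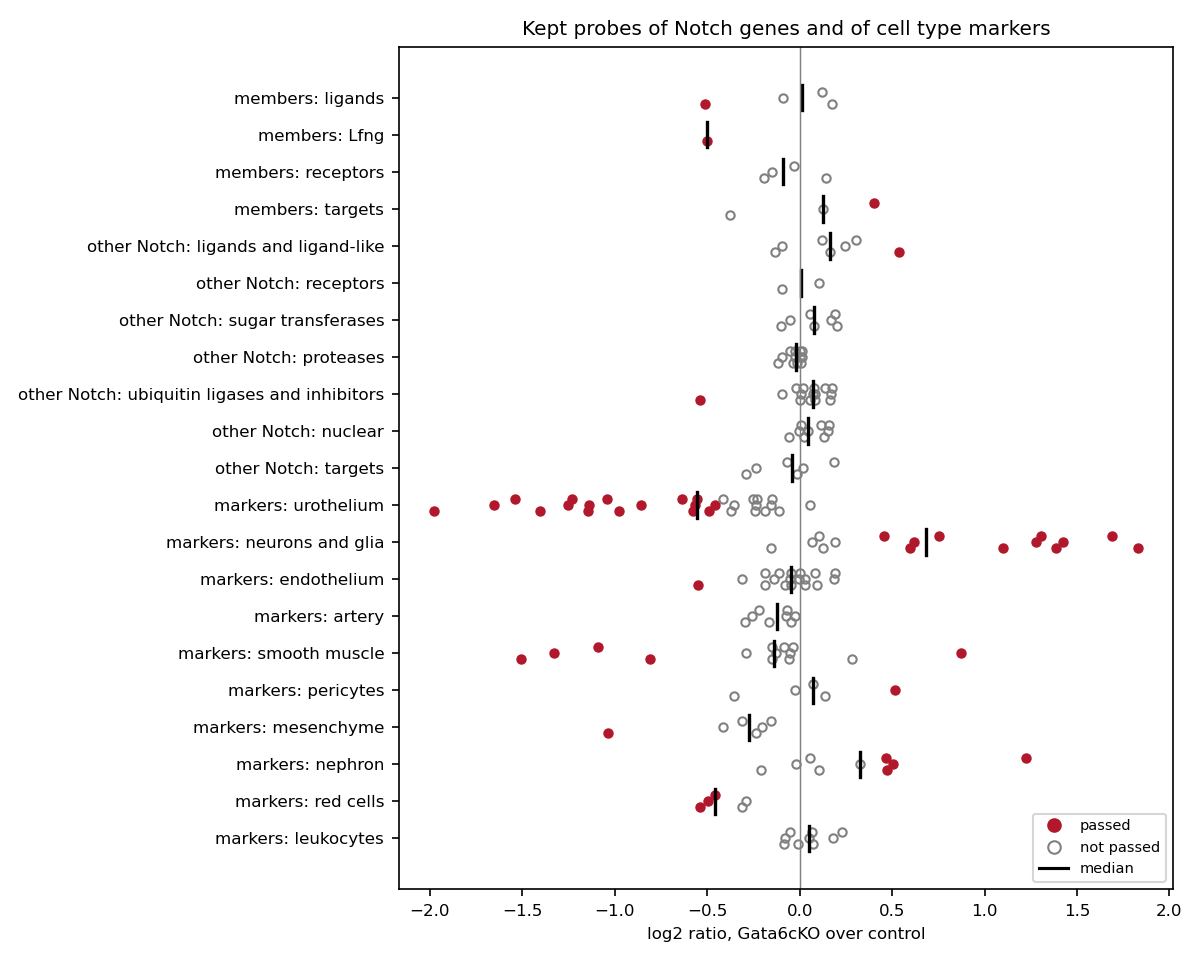
Log2 ratio of Gata6cKO over control for each kept probe of the members, of the other Notch genes by role and of the cell type markers. Filled circles passed the test, open circles did not, and bars are medians; the other Notch genes lie around 0, while markers of urothelium (median -0.55) lie below 0 and those of neurons and glia (median 0.69) above it.

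Markers of cell types that express Notch genes were measured on the same arrays. In such bulk RNA, fewer cells of a type and less RNA per cell cannot be told apart. Of 29 kept urothelial marker probes 17 were lower and 12 did not pass, with a median of -0.55, and all 23 listed genes had a kept probe. The uroplakin genes Upk1b at -1.98 and Upk1a at -1.54 (log2) had the smallest p. The summed signal of all 29 kept urothelial probes was 245653 and 226820 in male and female Gata6cKO RNA, against 333790.2 and 312825 in control RNA. Urothelial markers thus fell on the arrays where Jag2 and Lfng fell, and their part in those results was not tested. Of 5 red cell markers 3 were lower and 2 did not pass, with a median of -0.46. Summed over these 5, the signals were 17265 and 18355 in Gata6cKO RNA, against 25943 and 22742 in control RNA. Red cell markers thus also fell on those arrays, and their part in the Jag2 and Lfng results was not tested.

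Vessel and muscle markers were mixed, apart from those of arteries. Of 18 kept endothelial marker probes 1 was lower, that of the angiopoietin receptor Tek at -0.55 (log2), and 17 did not pass, with a median of -0.05 and summed signals of 118943 and 122771 in Gata6cKO RNA, against 125976 and 121177 in control RNA. The 8 kept probes of arterial markers did not pass (2 at an unadjusted p under 0.05). Their log2 ratios over both arrays were all below 0, between -0.30 and -0.02, with a median of -0.12. Summed arterial signals were 37048 and 35593 in Gata6cKO RNA, against 38120.3 and 40393 in control RNA. Of 5 pericyte markers 1 was higher, that of the potassium channel Kcnj8 at 0.51, and 4 did not pass, with a median of 0.07. Those 4 lay between -0.36 for Pdgfrb and 0.14 for Abcc9. Pdgfrb thus ran the other way from Kcnj8 (limma adjusted p = 0.201, unadjusted p = 0.0155). Of 14 kept smooth muscle probes 4 were lower, 1 was higher and 9 did not pass, with a median of -0.14 and summed signals of 60610.0 and 53216 in Gata6cKO RNA, against 72455 and 63210.2 in control RNA. The 4 that were lower lay between -1.51 and -0.81 (log2), well away from that median, among them Cnn1, which encodes the muscle protein calponin, at -1.51 and Myocd, a master regulator of smooth muscle genes, at -1.33. Cnn1 read 2566 and 1473 in male and female Gata6cKO RNA, against 7163 and 4253 in control RNA. The part of pericyte and muscle markers in the Heyl result was not tested.

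Of 16 kept probes of neurons and glia 11 were higher and 5 did not pass, with a median of 0.69 and summed signals of 112546 and 120819 in Gata6cKO RNA, against 102507 and 91849 in control RNA. The neurofilament genes Nefm at 1.83 and Nefl at 1.69 (log2) had the smallest p. These markers were higher on the arrays where Dner was higher, and their part in that result was not tested. Of 9 kept nephron probes 4 were higher and 5 did not pass, with a median of 0.33. Of 6 mesenchymal markers 1 was lower and 5 did not pass, with a median of -0.27. An unadjusted limma p under 0.05 was found for 3 of the 6, the 1 that passed included. Their log2 ratios over both arrays were all below 0, between -1.04 and -0.16, and their part in the Jag2 and Lfng results was not tested. The 9 kept leukocyte probes did not pass, with a median of 0.05.

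Among 140 genes of these lists, the pattern over the 4 RNAs most like each called member was found by the Euclidean distance between mean-centred log2 signals, all of which share the same arrays. For Jag2 the nearest genes were Slc4a1 (red cells) at a distance of 0.05, Dtx4 (other Notch genes) at 0.11 and Pparg (urothelium) at 0.12. For Lfng they were Foxf1 (mesenchyme) at 0.13, Elf3 (urothelium) at 0.15 and Tek (endothelium) at 0.15. For Heyl they were Kcnj8 (pericytes) at 0.19, Fabp7 (neurons and glia) at 0.25 and Abcc9 (pericytes) at 0.31.

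Promoter windows from RefSeq (GRCm38.p6, 250 bases before to 50 after a gene's start) were listed for 7 of the 10 genes, in 8 windows. They were searched on both strands for TGGGAA, the core of the site that RBPJ binds, and for AGATAA or TGATAA, cores of sites that GATA factors bind. The RBPJ core was present in 25.6% of all 32851 windows and in 1 of the 8 member windows, that of Lfng. A GATA core was present in 18.6% of all windows and in 0 of the 8. A match or its absence describes these letters in this window only. The upstream bases of Lfng and Jag2, the genes that were lower, are printed for comparison, with RBPJ cores in capitals.
Lfng, chr5:140607091-140607340, GRCm38.p6, plus strand: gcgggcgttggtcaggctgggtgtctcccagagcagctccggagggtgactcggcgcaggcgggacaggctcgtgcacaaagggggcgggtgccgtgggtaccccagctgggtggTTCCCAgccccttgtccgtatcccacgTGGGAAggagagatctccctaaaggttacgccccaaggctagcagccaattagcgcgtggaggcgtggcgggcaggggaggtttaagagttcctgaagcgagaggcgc
Jag2, chr12:112929496-112929745, GRCm38.p6, minus strand: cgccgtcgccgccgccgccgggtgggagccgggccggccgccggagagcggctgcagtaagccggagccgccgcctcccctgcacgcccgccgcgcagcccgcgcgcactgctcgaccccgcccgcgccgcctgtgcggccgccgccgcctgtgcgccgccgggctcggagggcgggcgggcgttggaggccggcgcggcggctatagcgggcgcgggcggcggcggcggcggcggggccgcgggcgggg
The Lfng window held the core 2 times, starting at -135 on the minus strand and at -108 on the plus strand, counted from the gene's start. GC content was 86.0% in the Jag2 window and 66.7% in the Lfng window, against a median of 65.2% over the member windows and 52.7% over all windows.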

How the data were processed

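Total RNA of E14.5 ureters (150 ng per labelling, per the labels) was compared on 2 two-colour arrays that lay on 1 slide. Per the file headers, the authors' scanner files hold raw and processed intensity per spot, made with Agilent Feature Extraction 10.7.3.1, and a log10 ratio of Cy5 over Cy3. The deposited series values are a score per probe: no value lay between -1 and 1, the medians were 1, and as log2 of a signed fold their Pearson correlation was 0.985 and 0.980 against the processed log2 ratios of Gata6cKO over control. How spots were summarised and centred for them is unknown. There were 0 unused per-sample columns.

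Raw intensities were background-corrected with normexp (offset 50) and normalised within arrays by loess in limma 3.58.1 (R 4.3.3, statmod 1.5.0), with control and outlier spots at weight 0, and the remaining spots of each probe were averaged. No spot was saturated. Signals per RNA were separated from the loess ratios after Aquantile normalisation between arrays. The ratios were fitted with lmFit and eBayes, with the swapped array's sign inverted, with 1 residual and 14.2 prior degrees of freedom, and p-values (two-sided) were adjusted by Benjamini-Hochberg over 26200 probes, since each member probe is reported. The fit was tested on simulated data. It returned the mean sizes put in, which followed from how the data were drawn and says nothing about the fit. More of its calls were false than the threshold allows, so the adjusted p-values may be too small and the nominal false discovery rate is not assured. The prior degrees of freedom, estimated from 1 residual one, ran from 3.95 to infinity over the settings tried.

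For the other lists, symbols were updated through RefSeq (GRCm38.p6): 28328 of 39429 probes matched by accession and 1602 symbols changed. Named were all members, Gata6, Tbx18, 9 fixed further Notch genes, every listed Notch gene that passed, marker genes among the 2 with the smallest p in their list, and the 3 list genes nearest to each called member; not every marker that this rule allows is printed. The members, lists and tests were chosen with earlier results of these data known. Alternatives changed the background correction, normalisation, filter, probe summary, prior, channels, replicate block and arrays used.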

Additional observations from a re-analysis of the deposited data

Results flagged for a closer look

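For 8 probes of the Notch genes named above, the log2 ratio of Gata6cKO over control had opposite signs on the male and female arrays. They include 3 of the 12 kept member probes, and the others belong to further Notch genes. With 1 array of each sex, the difference was not tested, and sex cannot be told apart from dye orientation. Of all kept probes, 49.1% had the same sign on both arrays, so opposite signs were common there and less frequent among the members, at 3 of 12. Hes5 had -1.25 on the male array and 0.67 on the female one. Hey2 had 0.47 on the male array and -0.10 on the female one. Dll1, at its brighter probe, had 0.28 on the male array and -0.05 on the female one. Hey1 had -0.017 on the male array and 0.27 on the female one. Notch4 had 0.11 on the male array and -0.30 on the female one. One of the paired Rbpj probes had -0.26 on the male array and 0.15 on the female one. One of the paired Mfng probes had -0.21 on the male array and 0.0012 on the female one. The dimmer Notch1 probe had -0.13 on the male array and 0.06 on the female one.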

How the results depend on the processing

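Each array holds both genotypes, so the replicate number pairs the RNAs by construction. The fit without that pairing is the one with separate channels and no replicate block, which also held a term for dye. What dropping the pairing did there cannot be told apart from what the dye term did. Over 9 other settings, all 3 called members kept their direction. It could change only with Agilent's processed signals, median centring and the deposited series values. The other settings reuse the same loess ratios for these single-probe genes, so the direction there was fixed. Median centring gave a log2 ratio of -0.51 for Jag2, -0.51 for Lfng and 0.39 for Heyl, and none passed (adjusted p = 0.961, 0.971 and 1.00). With no filter on dim probes the ratios were -0.51, -0.50 and 0.40 (adjusted p = 0.0629, 0.213 and 0.0948). With separate channels and no replicate block they were -0.51, -0.50 and 0.40 (adjusted p = 0.136, 0.246 and 0.853). With separate channels and the array correlation, Lfng at -0.50 and Heyl at 0.40 did not pass (adjusted p = 0.173 and 0.568). Lfng at -0.50 did not pass as the mean of probes (adjusted p = 0.0529). Heyl did not pass with Agilent's processed signals at 0.43, the brightest probe per gene at 0.40 or an intensity trend at 0.40 (adjusted p = 0.0658, 0.0615 and 0.0524). The dimmer Notch2 probe turned to -0.024 as the mean of both Notch2 probes. Why calls were lost was not tested.

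Over all features, 637 were lower and 584 higher. These counts were 133 and 116 with median centring, 303 and 319 with no filter, 334 and 343 with separate channels, and 20 and 26 with no replicate block. The 2 lower members became 0, 0, 1 and 0 under these settings and 1 with the mean of probes. The 1 higher member became 0 under the same 4, with processed signals, with the brightest probe and with the trend. The 1 lower and 1 higher of the other Notch genes became 0 with median centring and with no replicate block. On a single array, the ratio lay between -0.61 and -0.42 for Jag2, -0.75 and -0.24 for Lfng, 0.37 and 0.43 for Heyl, -0.64 and -0.11 for Hes1, 0.02 and 0.33 for Jag1, -0.05 and 0.28 for Dll1, -0.12 and -0.06 for Dll4, -0.13 and 0.06 and -0.16 and -0.15 for Notch1, -0.26 and -0.13 and 0.03 and 0.26 for Notch2, and -0.02 and 0.27 for Hey1, with no test. A slide block was not run, since both arrays lay on 1 slide. Signal over background limits the dimmer probes of Dll1, Notch1 and Notch2.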
